A study of Mus musculus with 6 samples.

Results

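In lung endothelial cells, 1521 of 23458 windows of 100 kb (6.48%) had a mean methylation level under 60% in WT samples, and they are described here as low methylation windows. Each autosome was divided into fixed windows from its first base, windows with at least 50 measured tiles of 1 kb were kept, and those whose tiles averaged under 60% over the 3 WT samples were chosen. The WT levels therefore chose the windows, so the KO-against-WT values within them are a description, and no p-value of a window, gene or tile inside them is given. The KO group is 3 samples of endothelial cells sorted from lungs of Dnmt3a knockout mice, and the WT group is 3 samples of the same sorted cells from wild-type mice. The allele, the cells in which it was deleted, and the age, sex and strain of the mice are not stated in the labels. Methylation was measured by bisulfite sequencing of tagmented whole-genome DNA, and each value is the percentage of methylation reported for a tile. The labels do not say whether samples of a group came from separate mice, so the spread between them may be technical.

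Dnmt3a is a DNA methyltransferase that adds methyl groups to CpG sites that carry none, while Dnmt1 copies existing methylation after replication. Long regions of intermediate methylation, called partially methylated domains, are typically poor in active genes, replicate late and lie near the nuclear lamina, and they are best known from cultured cells, placenta and tumours. Low regional methylation can also come from a different kind of sequence: valleys, or canyons, are CpG-rich stretches over developmental regulators that stay nearly free of methylation and are often bound by Polycomb proteins.

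Replication timing and contact with the lamina were not measured here, and the windows are sorted below by their tiles alone. The low methylation windows held genes with CpG-rich and CpG-poor starts. The 250 bases before the most upstream start that the RefSeq promoter set lists for 6 genes inside them show that contrast. Bases are from RefSeq (GRCm38.p6), on the strand of the gene, with each CG in capitals. The first 3 genes are from windows with 5 or more tiles under 10% in WT. Nfix encodes a nuclear factor I transcription factor (chr8:84780083-84780332, minus strand, 11 CpG), Bahcc1 a BAH-domain chromatin protein (chr11:120232697-120232946, plus strand, 19 CpG), and Zic1 a zinc finger factor of neural development (chr9:91365769-91366018, minus strand, 27 CpG). The starts used for Nfix and Bahcc1 lie inside the annotated spans of these genes, so they are not their outermost ends.
Nfix: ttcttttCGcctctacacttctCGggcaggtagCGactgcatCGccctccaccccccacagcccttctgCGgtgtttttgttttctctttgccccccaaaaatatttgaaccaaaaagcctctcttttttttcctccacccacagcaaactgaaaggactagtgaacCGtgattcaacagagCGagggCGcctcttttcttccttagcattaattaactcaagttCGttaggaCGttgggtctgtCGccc
Bahcc1: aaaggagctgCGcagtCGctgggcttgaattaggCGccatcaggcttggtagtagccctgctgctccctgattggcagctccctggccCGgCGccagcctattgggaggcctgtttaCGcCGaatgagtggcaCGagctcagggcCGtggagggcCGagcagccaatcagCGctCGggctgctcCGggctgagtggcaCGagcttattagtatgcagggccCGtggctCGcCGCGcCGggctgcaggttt
Zic1: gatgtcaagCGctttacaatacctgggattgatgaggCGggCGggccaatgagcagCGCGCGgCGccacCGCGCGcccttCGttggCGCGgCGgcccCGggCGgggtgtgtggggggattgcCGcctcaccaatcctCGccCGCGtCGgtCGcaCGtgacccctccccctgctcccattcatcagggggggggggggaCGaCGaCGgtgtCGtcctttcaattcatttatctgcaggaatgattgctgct
The other 3 are from windows with no such tile. Vmn2r103 encodes a vomeronasal pheromone receptor (chr17:19773113-19773362, plus strand, 3 CpG), Skint10 a member of a butyrophilin-like family known from skin and thymus (chr4:112774862-112775111, minus strand, 1 CpG), and Klra1 a Ly49 receptor of natural killer cells (chr6:130386875-130387124, minus strand, 2 CpG).
Vmn2r103: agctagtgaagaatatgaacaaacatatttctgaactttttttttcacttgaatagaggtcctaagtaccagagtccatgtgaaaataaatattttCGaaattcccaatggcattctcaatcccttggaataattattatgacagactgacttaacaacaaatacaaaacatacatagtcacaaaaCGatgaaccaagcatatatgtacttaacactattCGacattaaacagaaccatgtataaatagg
Skint10: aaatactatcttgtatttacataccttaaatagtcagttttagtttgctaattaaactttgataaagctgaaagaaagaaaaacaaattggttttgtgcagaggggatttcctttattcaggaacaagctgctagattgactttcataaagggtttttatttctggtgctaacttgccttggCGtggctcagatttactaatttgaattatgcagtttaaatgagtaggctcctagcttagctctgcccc
Klra1: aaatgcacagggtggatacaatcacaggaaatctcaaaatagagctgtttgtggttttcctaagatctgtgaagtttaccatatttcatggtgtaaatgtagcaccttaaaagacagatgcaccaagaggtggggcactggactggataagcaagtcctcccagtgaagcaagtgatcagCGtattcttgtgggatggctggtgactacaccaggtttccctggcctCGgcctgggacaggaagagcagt

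Over all tiles, samples averaged 63.7 ± 0.140% methylation in KO and 69.0 ± 0.451% in WT (SD, n = 3 each), which is -5.36 points for KO minus WT. Every KO sample lay below every WT sample, and the two-sided exact permutation p was 0.10, the smallest that 3 against 3 samples can give. The files give levels without read counts, so sequencing depth and the counting error of each value are unknown. The lower of the 2 ends of 10 endothelial marker genes lay between 0.445 and 21.2% in KO and between 1.36 and 26.5% in WT, and 3 of 6 leukocyte genes were at 50% or more in WT. The ends of 5 epithelial and 5 mesenchymal genes also lay under 50% in WT (up to 39.7 and 37.0%), so these lists do not separate the cell types here.

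The low methylation windows lost less methylation than the other windows, by a margin that depends on how they are chosen. Their mean level was 54.0, 54.3 and 54.3% in the 3 KO samples, against 57.6, 57.3 and 56.7% in the 3 WT samples. The KO values all lay below the WT values, and the group means of 54.2 ± 0.187% for KO and 57.2 ± 0.415% for WT (SD, n = 3 each) differed by -3.02 points. The other 21937 windows averaged 64.4 ± 0.137% in KO and 69.5 ± 0.462% in WT and differed by -5.13 points. Centring each sample on its median tile turned the difference of the low methylation windows to 1.88 points and scaling each sample to the same mean turned it to 1.49, so the loss is an absolute one that was smaller than the genome-wide shift. The choice of windows moved the difference by more than 1.5 times. It was -4.76 points with a threshold of 55%, against -4.997 in the windows not chosen, -5.29 against -5.92 with at least 70 tiles per window, and -1.35 against -5.13 with the median over tiles. The low methylation windows thus lost less under each of these choices, but the gap was under 1 point for the first 2. For single low methylation windows the difference had a median of -1.34 points and ran between -38.2 and 2.33.

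Because the same WT samples chose the windows and served as the reference, the comparison was repeated with windows chosen on WT replicate 1 alone. That choice gave 1372 windows, 1259 of them shared with the 1521. Their mean was 53.9 ± 0.203% in KO (SD, n = 3), against 57.2% and 56.7% in WT replicates 2 and 3, a difference of -3.04 points. The windows not chosen differed by -4.84 points between the same samples. The loss was 1.80 points smaller in the chosen windows, with a two-sided exact permutation p of 0.20, which is the smallest that 3 against 2 samples can give.

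The windows fell into 3 kinds by how many tiles under 10% in the WT mean, here called unmethylated tiles, they held. This division was made after the values were seen and also uses WT levels. It put 940 windows (61.8%) in the kind with 0 unmethylated tiles, 202 in the kind with 1 to 4 and 379 in the kind with 5 or more. In the 940 windows the mean level was 57.0, 57.6 and 57.4% in KO, against 58.4, 58.3 and 57.5% in WT, so a KO sample lay above a WT sample and the groups overlapped. Their difference was -0.746 points, with 57.3 ± 0.304% in KO and 58.1 ± 0.500% in WT (SD, n = 3 each). In the 379 windows the mean level was 46.5, 46.4 and 46.9% in KO, against 54.98, 54.3 and 54.4% in WT, with no overlap. Their difference was -7.95 points, with 46.6 ± 0.247% in KO and 54.5 ± 0.384% in WT. The 202 windows between them averaged 53.7 ± 0.0967% in KO and 58.0 ± 0.389% in WT and differed by -4.31 points. With the windows chosen on WT replicate 1, the 3 kinds differed by -0.711, -4.33 and -7.91 points from WT replicates 2 and 3, in order of rising number of unmethylated tiles. The kinds themselves still rest on the mean of all 3 WT samples, so replicates 2 and 3 helped to define them. Under centring the differences in the same order became 4.14, 0.577 and -3.06 points, and under scaling 3.92, 0.202 and -3.87, so relative to the genome only the kind with 5 or more unmethylated tiles stayed lower in KO under both. The order of the kinds was shared with the other windows, which differed by -3.83, -7.06 and -8.68 points in the same order without centring or scaling.

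**Figure D1:**
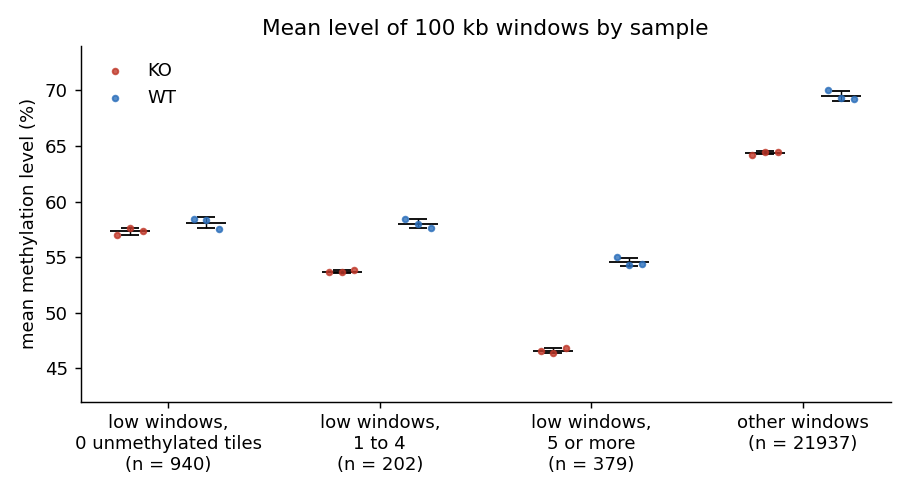
Mean methylation level (%, vertical axis, drawn between 42 and 74) over the 3 kinds of low methylation window and over the other windows, with a point per sample and the group mean ± SD (n = 3). KO and WT points overlap in the 940 windows with 0 unmethylated tiles and stand apart in the other 3 sets, by -7.95 points in the windows with 5 or more.

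The composition of the tiles differed between the kinds. Within a window with 0 unmethylated tiles the levels were even: the SD across its tiles had a median of 8.28 points, against 25.7 in windows with 5 or more. Of the tiles in the 940 windows with none, 77.3 ± 0.896% in KO and 79.0 ± 1.16% in WT lay between 50 and 80%. In windows with 5 or more unmethylated tiles, 17.1 ± 0.211% of tiles in KO and 12.5 ± 0.152% in WT were under 10%. A further 27.5 ± 0.493% in KO and 20.1 ± 0.188% in WT lay between 10 and 50%, and 5.94 ± 0.159% in KO and 14.6 ± 0.845% in WT were at 80% or more. The low mean of these windows in WT thus combined unmethylated tiles with methylated ones, and the KO samples held more of the first and fewer of the second.

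Calls were made with limma over all windows, where the adjusted p was below 0.05 and the groups differed by 5 points or more. Over the genome 41.9% of windows were called lower in KO, and 327 low methylation windows (21.5%) were. By kind, 7 of 940 (0.745%), 68 of 202 (33.7%) and 252 of 379 (66.5%) were called lower, in order of rising number of unmethylated tiles. In the other windows, the shares for the same kinds were higher, at 27.9%, 66.3% and 84.8%, and they rose in the same order. None of the low methylation windows was called higher at 5 points. At any size, 4 low methylation windows had an adjusted p under 0.05 for a higher level in KO, against 0.0682% of all windows, and 4 at an unadjusted p under 0.05. After scaling each sample to the same mean, 162 of the windows were called lower and 161 higher, and after centring 139 lower and 210 higher. Every KO sample was below each WT sample in 174 of the 940 windows (18.5%) and in 366 of the 379 (96.6%), where 78.2% of all windows did so. The opposite order occurred in 9 low methylation windows (0.592%), all of them with 0 unmethylated tiles, against 0.141% of all windows. The choice by low WT levels favours this order too.

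At the scale of 1 kb tiles, called by limma at 10 points over all tiles, 16.2% of the genome's tiles were lower in KO and 0.0796% higher. In the low methylation windows 12596 tiles (11.1%) were lower and 172 (0.152%) higher. The tiles called lower made up 1.13% of those in windows with 0 unmethylated tiles, 14.2% with 1 to 4 and 26.7% with 5 or more. In other windows of these kinds they made up 11.1%, 23.5% and 29.8%. Of the 172 tiles called higher, 132 were in windows with 0 unmethylated tiles. Scaling left 6803 of the tiles lower and 1664 higher, and centring 6161 lower and 1659 higher.

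The small difference of the windows with 0 unmethylated tiles lay at the low end of a relation with the WT level that was not steady. Across all windows of that kind, the median difference was -0.673 points at a WT level of 55 to 60% (860 windows) and -1.18 at 60 to 65% (4115 windows). It was -2.46 points at 65 to 70%, -4.80 at 70 to 75% and -7.14 at 75 to 80%, and it turned back to -5.42 at 80% or more (478 windows). The values change gradually across 60%, so the threshold marks no step. Windows with 5 or more unmethylated tiles had their largest median loss just above the threshold, -9.19 points at 60 to 65%, against -7.79 at 55 to 60% and -4.78 below 50%. The WT level enters both the bins and the difference, so these values are a description.

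**Figure D2:**
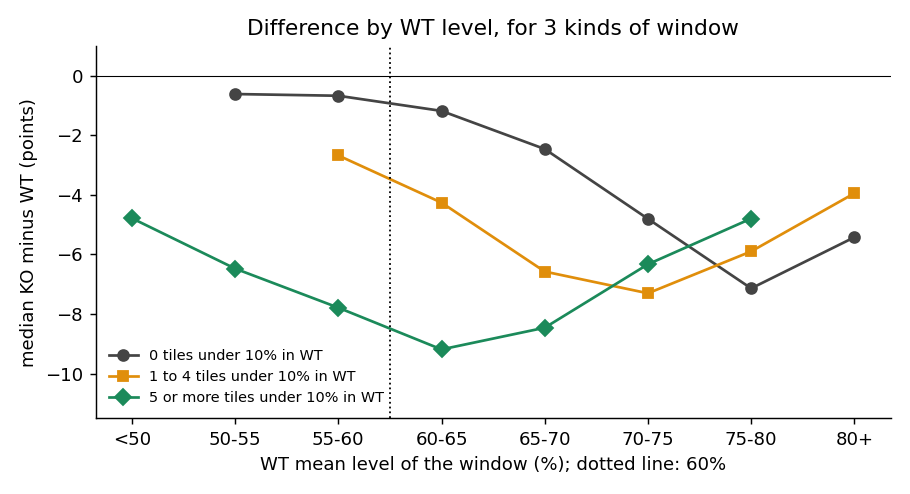
Median KO minus WT difference of windows (points, vertical axis) by WT mean level of the window (%, horizontal axis, 5-point bins), with a line for each kind of window and bins of at least 20 windows. Left of the dotted line at 60% are the low methylation windows, where the 3 kinds are apart (-0.673, -2.68 and -7.79 points at 55 to 60%).

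The threshold itself can be seen in its nearest windows. The 3 windows just inside had WT levels of 59.9994, 59.9974 and 59.9966% and differed by -3.08, 0.286 and 0.957 points, the first of them around C1ql2. The 3 just outside had WT levels of 60.0013, 60.0018 and 60.0029% and differed by -0.937, -10.7 and -15.0 points, the last 2 around Adcy6 and Nuak2.

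The KO samples had many more windows under 60%. There were 5394, 5068 and 4993 such windows in the 3 KO samples, against 1372, 1554 and 1920 in the 3 WT samples, with no overlap. In the group means, 5067 windows (21.6%) lay under 60% in KO and 1521 (6.48%) in WT. The 1482 windows in both sets were 29.2% of the KO set and 97.4% of the WT set. All of the 39 windows under 60% in WT alone had 0 unmethylated tiles. The 3585 windows under 60% in KO alone had a median WT level of 65.2% and a median difference of -9.31 points, 32.6% of them had 0 unmethylated tiles, and they held 1.38 protein-coding genes each.

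Low methylation windows were spread over all 19 autosomes, unevenly. Chromosome 7 had 222 of its 1310 windows among them (16.9%) and chromosome 17 had 109 of 906 (12.03%), while chromosome 16 had 11 of 944 (1.17%). On chromosome 7, 173 of the 222 windows had 0 unmethylated tiles. On chromosome 11, which holds the HoxB cluster, 35 of 79 windows had 5 or more, and the median difference was -4.48 points, against -0.842 on chromosome 7.

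Adjacent low methylation windows formed 975 runs, and long domains were the exception. There were 709 runs of 1 window, 155 of 2, 81 of 3 or 4 and 30 of 5 or more, so 46.6% of the windows stood alone and 15.6% (237) were in runs of 5 or more. The longest run had 23 windows. Windows in runs of 5 or more held 0 unmethylated tiles in 95.8% of cases, averaged 56.2% in KO and 56.9% in WT, and differed by -0.709 points. Windows that stood alone held 0 unmethylated tiles in 47.4% of cases, averaged 53.5% in KO and 57.5% in WT, and differed by -3.95 points. A window with fewer than 50 tiles ends a run, so a long domain with poorly covered stretches may be counted as several.

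**Figure D3:**
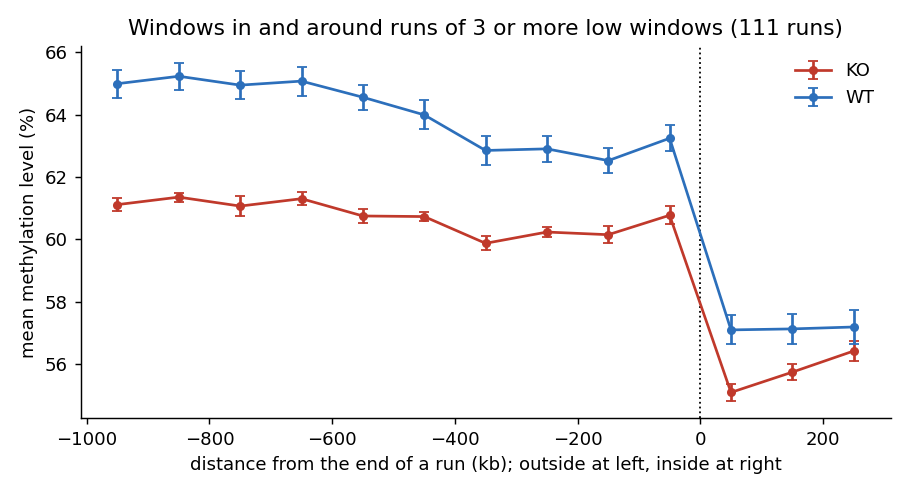
Mean methylation level (%, vertical axis, drawn above 54) of windows by distance from an end of a run (kb, outside at left and inside at right). Values cover the 111 runs of 3 or more low methylation windows, as mean ± SD over samples (n = 3 each). Outside windows can lie in another run. The KO and WT lines are -3.88 points apart at 1000 kb outside and -0.769 points apart in the third window inside.

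Around the 111 runs of 3 or more windows, KO and WT levels were closer inside the run than outside it. In the third window inside a run the mean was 56.4 ± 0.324% in KO and 57.2 ± 0.543% in WT, and in the first window inside it was 55.1 ± 0.285% in KO and 57.1 ± 0.463% in WT. In the first window outside, the mean was 60.8 ± 0.292% in KO and 63.2 ± 0.410% in WT. At 1000 kb outside it was 61.1 ± 0.214% in KO and 64.99 ± 0.454% in WT. The KO-minus-WT difference was thus -2.00 points in the first window inside, -2.47 just outside and -3.88 at 1000 kb. It was -0.769 points in the third window inside, which comes from the longer runs alone, so no gradient within a run is shown. The WT level defines where a run ends, so the step at the border is part of the choice. Windows farther outside were taken without regard to other runs, so they can include low methylation windows and be counted at several distances.

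Of the 8 longest runs, those of 23, 18 and 15 windows lay over arrays of immunoglobulin segments, Skint genes and pheromone receptors. Some of the other long runs held no listed gene family. The run of 23 windows, chr12:113600001-115900000, covers variable segments of the immunoglobulin heavy chain, the exons that B cells join to make antibodies, with 111 V segments, 60 V pseudogenes and 0 protein-coding genes. Its mean was 53.2, 53.9 and 53.4% in KO, against 54.6, 54.8 and 53.5% in WT, and the groups overlapped. The run of 18 windows, chr4:112500001-114300000, holds 5 Skint genes, and its mean was 54.9, 55.4 and 54.8% in KO, against 56.0, 56.3 and 55.03% in WT, again with an overlap. The run of 15 windows, chr17:19400001-20900000, holds 11 Vmn2r and 8 Vmn1r pheromone receptor genes among 22 protein-coding genes. Its mean was 55.7, 56.3 and 56.1% in KO, against 56.7, 56.7 and 56.0% in WT, and WT replicate 3 lay among the KO samples.

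The run of 12 windows, chr6:130000001-131200000, holds 8 genes of Klr receptors, which natural killer cells use to sense MHC molecules. Its mean was 54.7, 55.5 and 54.8% in KO, against 57.0, 56.2 and 54.9% in WT, and WT replicate 3 lay within the range of the KO samples. The run of 11 windows, chr7:60000001-61100000, contains the midpoint of Snrpn, an imprinted gene of RNA splicing, and no other protein-coding gene. Its mean was 52.2, 52.2 and 52.8% in KO, against 54.1, 53.5 and 53.8% in WT, and the groups did not overlap. Of the next 3 runs, 2 have 9 windows, around Vstm2b on chromosome 7 (-1.23 points) and on chromosome 2 with no gene named (-0.226 points). The third has 8 windows with 6 Vmn1r, 3 Vmn2r and 1 Nlrp gene on chromosome 7 (-1.13 points). None of the windows in these 8 runs was called lower at 5 points by limma, where 41.9% of all windows were. Most of them held 0 unmethylated tiles, and only 0.745% of all low methylation windows of that kind were called. The absence of calls is therefore near the share of the kind.

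**Figure D4:**
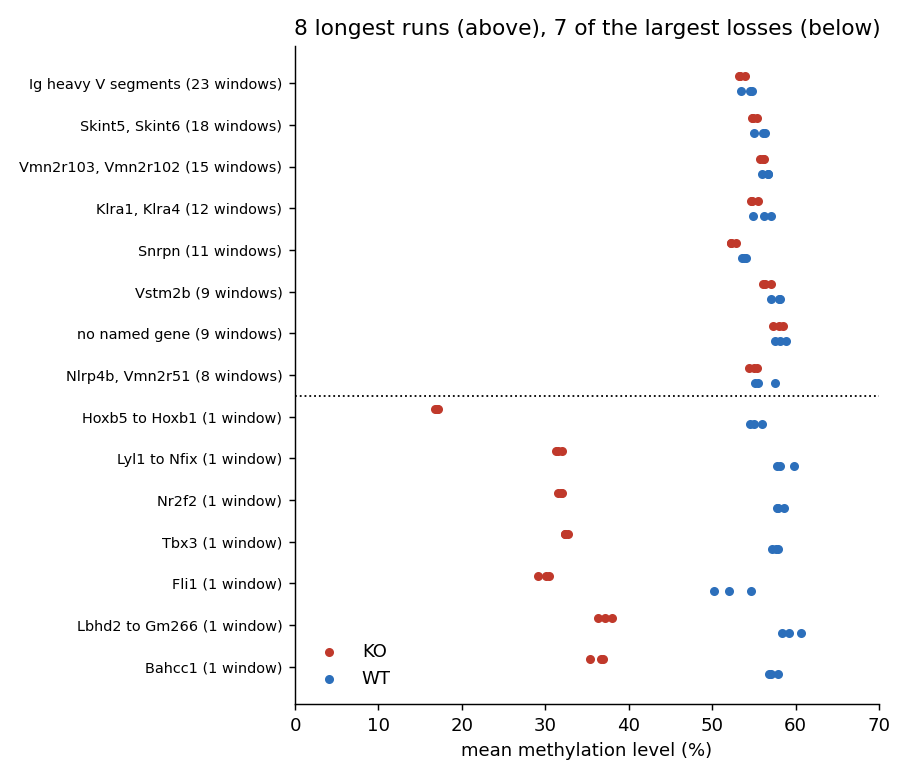
Mean methylation level (%, horizontal axis) in each KO and WT sample for the 8 longest runs of low methylation windows (above the dotted line) and 7 of the low methylation windows with the largest losses (below), each row with 3 points per group. KO and WT points overlap in 6 of the 8 runs and stand far apart in the windows below, where the HoxB window averaged 17.0% in KO and 55.2% in WT.

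The largest losses described here were in 7 windows, mostly over transcription factor genes and each with unmethylated tiles in WT. The window over Hoxb5, Hoxb4, Hoxb3, Hoxb2 and Hoxb1, homeobox genes that pattern the body axis, chr11:96300001-96400000, was at 17.0, 17.1 and 16.8% in KO, against 56.0, 55.01 and 54.5% in WT. The difference of -38.2 points was the largest loss among the low methylation windows. The window of Nfix and Lyl1, a basic helix-loop-helix factor of blood and endothelium, chr8:84700001-84800000, was at 31.3, 31.9 and 31.5% in KO, against 59.8, 58.1 and 57.7% in WT. The window of Nr2f2, the COUP-TFII factor of venous identity, chr7:70300001-70400000, was at 31.9, 31.5 and 32.0% in KO, against 58.6, 57.9 and 57.7% in WT. The window of Tbx3, a T-box factor, chr5:119600001-119700000, was at 32.3, 32.4 and 32.7% in KO, against 57.6, 57.9 and 57.2% in WT. In all of them the groups stood apart by many times the spread within a group.

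Losses of -22.4 to -21.0 points followed in 3 more windows. The window at chr9:32500001-32600000 overlaps Fli1, an ETS factor of endothelium and blood, and averaged 29.9 ± 0.716% in KO and 52.3 ± 2.21% in WT (SD, n = 3 each). The window of Tnfaip2, a gene induced by tumour necrosis factor in endothelium, chr12:111400001-111500000, averaged 37.2 ± 0.814% in KO and 59.4 ± 1.18% in WT. That of Bahcc1, chr11:120200001-120300000, averaged 36.3 ± 0.861% in KO and 57.3 ± 0.571% in WT.

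Gene bodies inside these windows, measured over tiles that lie fully within the gene, were also lower, and they make up only part of each window. The body of Hoxb3 was at 1.93, 1.77 and 1.82% in KO, against 51.3, 51.7 and 50.4% in WT. That of Nr2f2 was at 0.771, 1.18 and 0.650% in KO, against 32.4, 34.4 and 30.3% in WT. Both bodies had intermediate means in WT and means under 2% in KO, and the levels of single tiles behind these means are not given. Nfix averaged 32.4 ± 0.259% in KO and 60.1 ± 1.10% in WT over 96 tiles, and Tnfaip2 averaged 18.1 ± 2.67% in KO and 64.0 ± 1.92% in WT over 11. Bahcc1 averaged 41.6 ± 1.82% in KO and 61.8 ± 0.672% in WT, and Tbx3 averaged 1.98 ± 0.228% in KO and 8.30 ± 1.34% in WT. The last body was already low in WT, while the Tbx3 window as a whole differed by -25.1 points.

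The lowest windows in WT were mostly Hox clusters, and they did not all lose methylation. The window of Hoxc13 to Hoxc8, chr15:102900001-103000000, had 73 unmethylated tiles of 95. It was at 9.98, 8.46 and 8.62% in KO, against 9.91, 9.24 and 8.84% in WT, and the groups overlapped. The window of Hoxa5 to Hoxa13, chr6:52200001-52300000, was at 17.7, 17.3 and 17.8% in KO, against 30.1, 27.3 and 27.3% in WT, with no overlap. Within it the body of Hoxa6 averaged 0.704 ± 0.136% in KO and 54.6 ± 7.65% in WT, while that of Hoxa10 averaged 7.91 ± 1.06% in KO and 9.21 ± 1.07% in WT. The window of Hoxc6 to Hoxc4 averaged 22.6 ± 0.284% in KO and 28.9 ± 0.650% in WT. That of Hoxb9 to Hoxb6 averaged 26.0 ± 0.886% in KO and 31.3 ± 0.709% in WT and differed by -5.25 points that was under 5 points without KO replicate 2 (-4.84), without WT replicate 1 (-4.92) and after scaling (-2.93).

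Of the 4 other lowest windows, 3 differed by less than 5 points. That of Zic1 and Zic4, chr9:91300001-91400000, averaged 30.9 ± 0.861% in KO and 32.1 ± 1.20% in WT. That of Evx2 to Hoxd9, chr2:74600001-74700000, averaged 31.0 ± 0.398% in KO and 33.6 ± 0.333% in WT. That of Tfap2b, an AP-2 factor of neural crest and kidney, chr1:19200001-19300000, averaged 34.9 ± 0.459% in KO and 36.9 ± 0.935% in WT. The remaining one, chr7:79500001-79600000, overlaps Mir9-3 and Rhcg, an ammonium transporter gene, and averaged 30.4 ± 0.439% in KO and 36.6 ± 0.763% in WT. After scaling, its difference was -3.55 points and that of the Hoxc6 to Hoxc4 window -4.24 points, both under the 5 points of a call.

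The lowest windows and the HoxB window also hold microRNA genes, whose mature sequences are given from RefSeq with the seed, bases 2 to 8, in capitals. They were added after the values were seen.
mmu-miR-196a-5p: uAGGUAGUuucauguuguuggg
mmu-miR-196b-5p: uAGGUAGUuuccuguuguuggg
mmu-miR-10a-5p: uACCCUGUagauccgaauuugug
mmu-miR-9-5p: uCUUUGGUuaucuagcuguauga
The first 2 share the seed AGGUAGU and come from hairpins in 3 Hox clusters. The tile of Mir196a-1, in HoxB, was at 0.957, 1.63 and 0.393% in KO, against 32.2, 23.7 and 10.5% in WT, and the groups did not overlap although WT was widely spread. The tile of Mir196a-2, in HoxC, averaged 4.64 ± 3.13% in KO and 3.70 ± 2.83% in WT. The tile of Mir196b, in HoxA, averaged 2.13 ± 1.47% in KO and 4.09 ± 1.54% in WT. Mir10a, which lies beside Hoxb4, was at 0.430, 0.435 and 4.93% in KO, against 46.4, 39.7 and 45.1% in WT. The tile of Mir9-3, which gives the neural miR-9, averaged 2.35 ± 0.565% in KO and 1.85 ± 0.844% in WT. By limma over all tiles, those of Mir196a-1 and Mir10a were called lower, as were 16.2% of all tiles. The other 3 tiles were under 10% in WT, so they could not lose the 10 points of a call. In all, 93 of 914 hairpins lay in low methylation windows, 67 of them in windows with 5 or more unmethylated tiles.

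At the other end, 4 windows had the largest gains, none of them with an unmethylated tile. The window chr15:70000001-70100000, with no protein-coding gene, was at 60.6, 62.5 and 61.6% in KO, against 60.4, 57.6 and 59.7% in WT. The window of Ceacam11, a gene of the carcinoembryonic antigen family, chr7:17900001-18000000, was at 56.4, 56.0 and 55.1% in KO, against 54.5, 54.1 and 53.3% in WT. In both, every KO sample lay above every WT sample, by 2.33 and 1.90 points between the means. The windows chr6:3100001-3200000 and chr9:16700001-16800000 differed by 1.93 and 1.73 points, and their groups overlapped. These differences are smaller than the 5 points used for calls. After scaling each sample to the same mean, all 4 windows were called higher in KO. Their differences were then 7.22 points for chr15:70000001-70100000, 6.86 for chr6:3100001-3200000, 6.35 for the Ceacam11 window and 6.32 for chr9:16700001-16800000.

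The 7 windows with 0 unmethylated tiles that were called lower were looked at after their values were seen. The largest loss among them was at chr6:114500001-114600000, with no protein-coding gene, at 29.9, 29.2 and 29.6% in KO, against 49.0, 50.1 and 48.0% in WT. It stood far from the next, the window of Cyp11a1, Ccdc33 and Stra6 on chromosome 9, which averaged 49.2 ± 0.542% in KO and 59.6 ± 0.585% in WT. The other 5 differed by -8.79 to -5.09 points, and 3 of them overlap Odf3l1 and Cspg4, Wscd2, or Pappa.

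Gene density followed the kinds. A protein-coding gene was counted where its midpoint lies. The low methylation windows held 2002 of 19913 genes (10.1%) in 6.48% of the windows, 1.32 per window against 0.816 in the other windows. Windows with 5 or more unmethylated tiles held 2.87 genes each, against 3.12 in other windows with as many unmethylated tiles. Windows with 0 held 0.746 each, against 0.371 in other windows with 0, and 65.3% of them held none, against 75.1% of those other windows. Their genes were compact, since spans of protein-coding genes covered 20.6% of their bases, against 33.2% in the other windows with 0 unmethylated tiles. With the threshold at 65%, the windows held 0.819 genes each, so the density depends on the threshold.

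Of the 701 genes in windows with 0 unmethylated tiles, 525 (74.9%) belonged to gene families listed by symbol, while this share was 9.84% of the 1087 genes in windows with 5 or more. Over all tested windows, 2956 of 19913 genes belonged to these families. The share in other windows with 0 unmethylated tiles was not counted, so it is not known whether the high share is particular to low methylation. The families were listed with earlier results of these data known, and their counts are a description. Neighbouring genes of an array share windows, so the genes counted are not independent of each other. Against the 10.1% of all protein-coding genes, low methylation windows held 258 of 1046 olfactory receptor genes (24.7%), which encode the odour receptors of the nose. They held 57 of 161 Vmn1r genes (35.4%) and 43 of 96 Vmn2r genes (44.8%), the 2 families of pheromone receptors. The genes inside lay in 73 windows for olfactory receptors, 32 for Vmn1r and 34 for Vmn2r. Taste receptors of the Tas2r family, which detect bitter compounds, had 13 of 30 genes inside, in 3 windows. Mrgpr receptors of sensory neurons had 6 of 15, in 5 windows. Trace amine receptors, another family of the nose, had 0 of 15.

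Among epithelial and metabolic families, 20 of 21 late cornified envelope genes of the skin barrier (4 windows) and 10 of 11 Skint genes (9 windows) lay inside. Secretoglobins, small secreted proteins, had 13 of 26 genes inside, sulfotransferases 11 of 21, Cyp3 cytochromes of drug metabolism 5 of 9 and glucuronosyltransferases 6 of 22. Keratin-associated proteins had 0 of 56 and kallikreins, secreted proteases, 0 of 27. The arrays of the skin therefore did not share a level. Among families of the germ line and early embryo, Pramel and Oog genes had 16 of 31 and Nlrp genes 6 of 18.

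Immune families were split in the same way. Immunoglobulin segments had 143 of 253 inside (34 windows), and T cell receptor segments 16 of 147 (3 windows). Klr receptors had 8 of 27 (4 windows) and Cd300 receptors of myeloid cells 6 of 12, with all 6 Cd300 genes in 1 window with 1 to 4 unmethylated tiles. MHC genes had 15 of 35, 11 of them in windows with 5 or more unmethylated tiles. Clustered protocadherins, adhesion proteins of neurons, had 14 of 14 alpha genes and 19 of 22 beta genes inside, and 0 of 21 gamma genes. The alpha genes inside lay in only 2 windows and the beta genes in 3. Some arrays could hardly be judged: 27 of 29 alpha defensin genes and 17 of 24 major urinary protein genes lay in windows with fewer than 50 tiles.

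The windows with 5 or more unmethylated tiles held other families. All 39 Hox genes were in them, in 9 windows, and 4 of 6 Irx genes, homeobox factors of patterning. Ribosomal protein genes had 14 of 93 inside, 12 of them in such windows. Zinc finger genes of the Zfp name had 17 of 369 (4.61%) inside, a lower share than the 10.1% of all genes, and potassium channels 7 of 92 (7.61%).

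**Figure D5:**
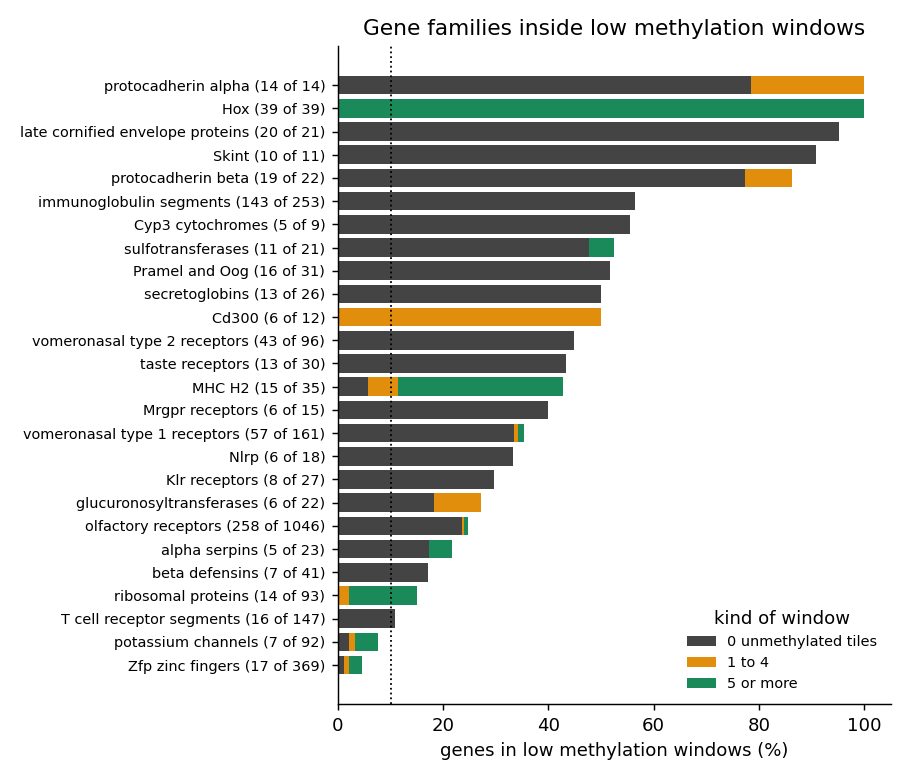
Share of the genes of each family (%, horizontal axis) that lie in low methylation windows, for families with at least 5 genes inside, divided by kind of window. The dotted line is the 10.1% of all protein-coding genes. Genes of an array can share a window, so a bar can rest on few windows. Most chemosensory, skin and immune families lie in windows with 0 unmethylated tiles, and all 39 Hox genes in windows with 5 or more.

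Gene bodies were called by limma at 5 points over all bodies, and few were called in windows with 0 unmethylated tiles. Over the genome 53.7% of bodies were called lower in KO and 0.0417% higher. In all low methylation windows 657 of 1275 bodies (51.5%) were lower and 1 was higher. In windows with 0 unmethylated tiles 17 of 281 (6.05%) were lower, and the higher one, the prolactin family gene Prl2c5 with 5 tiles, was at 54.5, 60.9 and 58.7% in KO, against 55.9, 50.8 and 48.2% in WT. In that gene KO replicate 1 lay below WT replicate 1. In windows with 5 or more, 554 of 814 bodies (68.1%) were lower. In the other windows, 41.8% of bodies were lower with 0 unmethylated tiles and 64.1% with 5 or more.

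Of 43 Vmn2r bodies in the low methylation windows, 0 were called lower and 0 higher, and their median difference was 0.112 points, against -0.900 in Vmn2r bodies of other windows. Vmn2r103 was at 57.3, 53.8 and 58.6% in KO, against 54.2, 59.2 and 55.8% in WT, with the samples of both groups mixed. Of 10 Skint bodies 0 were called. Skint5, measured over 348 tiles, was at 51.2, 52.3 and 52.6% in KO, against 51.8, 53.6 and 52.3% in WT, and these groups overlapped too. Of 8 Klr bodies 1 was called lower, Klra10 with 50.3 ± 3.96% in KO and 55.4 ± 1.42% in WT, a call that was lost after scaling and when any replicate other than KO replicate 1 was left out. Of 14 olfactory receptor bodies 1 was called lower, and the longest, Olfr1280, averaged 56.5 ± 1.15% in KO and 54.3 ± 1.36% in WT. After scaling, Olfr1280 was called higher in KO by 6.65 points, and Vmn2r107 and Vmn2r52 by 6.20 and 5.45 points.

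Some long genes with their midpoint in the windows had small differences, but others of the same families did not. A body longer than 100 kb reaches beyond the window of its midpoint, so its value also covers sequence outside that window. Kcnip4, a potassium channel interacting protein measured over 818 tiles, averaged 60.6 ± 0.0370% in KO and 61.5 ± 0.278% in WT. Snrpn averaged 53.6 ± 0.332% in KO and 54.5 ± 0.323% in WT over 289 tiles, and Pcdha1 averaged 56.3 ± 0.920% in KO and 58.0 ± 0.0598% in WT over 186. None of the 3 was called. The Kcnip4 body lay above 60% in WT, so its value is not that of low methylation windows alone. Of all 6 potassium channel bodies in the windows, the family by which Kcnip4 was listed, 3 were called lower, and their median difference was -6.60 points with a largest loss of -18.7. Set against the 53.7% of all bodies, 11 of 19 Hox bodies and 3 of 6 MHC bodies called lower are near the background, and 6 of 7 ribosomal protein bodies were called. None of these was called higher. The Hox bodies had a median level of 9.21% in WT, and a body under 5% in WT could not lose the 5 points of a call. All Hox genes lie in windows with 5 or more unmethylated tiles, where 68.1% of bodies were called lower. Rpl3, a protein of the large ribosomal subunit, averaged 28.2 ± 2.32% in KO and 46.8 ± 0.448% in WT. H2-DMa, a chaperone of MHC class II loading, averaged 37.3 ± 2.41% in KO and 46.4 ± 2.08% in WT. The zinc finger gene Zfp608 fell to 37.8 ± 0.619% in KO, against 49.9 ± 0.238% in WT. The 4 Irx bodies averaged a median of 3.60% in KO and 6.32% in WT and had no calls.

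Promoters showed the same division in sequence. Promoters were the 300 bases, 250 before and 50 after, around the most upstream start in the RefSeq promoter set for each gene. The search for the letters CG found a median of 1 in the 577 promoters of windows with 0 unmethylated tiles. No CG was found in 29.1% of them, and 10 or more in 1.73%. The 874 promoters of windows with 5 or more unmethylated tiles had a median of 17, and 73.8% had 10 or more. All promoters in tested windows had a median of 15, and 60.2% had 10 or more. In other windows with 0 unmethylated tiles the median was 2. Low CpG content was thus shared with windows of the same kind above 60%, and the division by unmethylated tiles, which are often CpG-rich, bears on it.

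The tiles over these promoters had a median level of 55.1% in KO and 56.3% in WT in windows with 0 unmethylated tiles, and of 2.27% in KO and 3.69% in WT in windows with 5 or more. By limma at 10 points, 9.00% of all promoters were called lower, and 109 of 1519 in the low methylation windows (7.18%). The calls were 5 of 447 in windows with 0 unmethylated tiles (1.12%) and 78 of 863 in windows with 5 or more (9.04%). In other windows of these kinds 10.1% and 8.78% were called. A promoter under 10% in WT could not lose the 10 points of a call. With a median of 3.69% in WT, most promoters in low methylation windows with 5 or more unmethylated tiles could not be called lower. The shares of the kinds are therefore not comparable as rates of loss. The promoter tile of Nfix, whose sequence is given above, was at 0.312, 1.65 and 0.957% in KO, against 74.3, 73.8 and 78.1% in WT. Its groups stood far apart. This start is the most upstream one in the promoter set for Nfix, but it lies inside the annotated gene, chr8:84704712-84801238. Those of Bahcc1 and Zic1 were low in both, at 0.617 ± 0.486% in KO and 1.29 ± 0.446% in WT for Bahcc1 and 0.600 ± 0.445% in KO and 1.68 ± 0.739% in WT for Zic1. Those of the CpG-poor promoters printed with them were intermediate in both groups and overlapped: Vmn2r103 averaged 49.4 ± 7.44% in KO and 52.4 ± 5.58% in WT, Skint10 averaged 45.8 ± 5.78% in KO and 48.1 ± 0.419% in WT, and Klra1 averaged 48.0 ± 8.97% in KO and 49.1 ± 5.48% in WT.

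The low methylation windows without unmethylated tiles were also poor in measured tiles. They had a median of 63 tiles, against 78 in other windows with 0 unmethylated tiles and 97 in low methylation windows with 5 or more. Pseudogenes were more frequent in them, with 0.641 per window against 0.339 in the other windows. The part that coverage and duplicated sequence play in the level of these windows was not tested. Restricting the choice to windows with at least 70 tiles left 763 windows, with the difference of -5.29 points given above.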

How the data were processed

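Per the labels' protocols, 30 ng of DNA from sorted lung endothelial cells went into 3 bisulfite libraries per sample, made by tagmentation and read as pairs of 100 bases. The submitters' processing notes name BWA 0.7.8 and the mm10 build. Per the file headers, the authors deposited methylation as a fraction per sample, for 1954255 tiles of 1 kb on chromosomes 1 to 19 in 6 samples. The methylation caller, coverage filter and smoothing, if any, are not given in the sources used. There are no read counts, so depth is unknown and no counting interval was computed.

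The fractions were turned to percent and averaged over fixed windows of 100 kb with at least 50 tiles, which left out 508 of 23966 windows. The design foresaw a logistic model for read counts. As levels alone were given, limma 3.58.1 (R 4.3.3) was used with a variance trend on the mean level, all 6 samples and Benjamini-Hochberg adjustment over all windows, tiles, gene bodies or promoters. Calls needed 5 points or more for windows and bodies, or 10 for tiles and promoters, and an adjusted p below 0.05. The fits were tested on simulated data. Single values were compared by exact permutation of samples. Python 3.11.15 with numpy 2.4.6, pandas 2.3.3, scipy 1.17.1 and matplotlib 3.10.9 did the rest.

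Genes, promoters and microRNAs came from RefSeq tables of GRCm38.p6 (mm10). A gene body was the mean of tiles fully inside the gene, with at least 3 tiles. Bodies of overlapping genes share tiles. Promoters were matched by gene ID, 1 per gene, for 16457 genes. The windows named were the 8 lowest in WT, the 8 largest losses, the 4 largest gains and those nearest the threshold, together with the 8 longest runs. Named genes were up to 4 with most tiles in each, and up to 3 of each family with at least 5 genes inside. Of the windows that the rule named, 1 is not reported here. The windows, lists and families were chosen with earlier results of these data known. The division by unmethylated tiles, the microRNAs, the differences of windows not chosen under other choices, and the 7 called windows with 0 unmethylated tiles were added after the values were seen. Alternatives covered the threshold, the number of tiles, the window grid, the median in place of the mean, scaling, the minimum difference, a replicate block and each replicate left out.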

Additional observations from a re-analysis of the deposited data

How the results depend on the processing

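The number of low methylation windows was 238 with a WT threshold of 55% and 6865 with 65%, 763 with at least 70 tiles, and 1402 to 1666 when a WT replicate was left out. The difference over the windows was -4.76 points at 55%, -5.29 with at least 70 tiles, -1.35 with the median over tiles, and -3.29 to -2.67 when a replicate was left out. It reversed to 1.88 after centring and 1.49 after scaling, because these remove the genome-wide shift. By kind, centring gave 4.14 points for windows with 0 unmethylated tiles, 0.577 for 1 to 4 and -3.06 for 5 or more, and scaling gave 3.92, 0.202 and -3.87 in that order. Leaving out a replicate gave -1.03 to -0.581, -4.49 to -4.11 and -8.08 to -7.73 points in that order.

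Low methylation windows called lower by limma numbered 660 with no minimum difference, 137 at 10 points, 139 after centring, 162 after scaling and 313 to 334 when a replicate was left out. Over all windows these counts were 18517, 2809, 2912, 2586 and 9272 to 10123. Tiles called lower numbered 4420 at 20 points, 6161 after centring, 6803 after scaling and 10342 to 11553 when a replicate was left out. The causes of the other shifts were not tested. Genes per window were 0.819 at a threshold of 65%. Same-numbered KO and WT samples deviated together at r = 0.0402, 0.0307 and 0.111 over windows, so the numbers were not taken to pair the samples. With the replicate number as a block, 327 low methylation windows, 9829 of all windows and 12558 tiles were called lower, and no named window or gene changed its call. Without read counts, what depth limits could not be computed.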
